A study of Mus musculus with 6 samples.

Results

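The 10 circadian clock genes described here were Arntl, Npas2, Clock, Dbp, Tef, Nr1d1, Nr1d2, Per2, Per3 and Ciart. They were chosen by name, with earlier results of these data known. All 10 were found among the 18238 genes of the count and FPKM tables. RNA-seq was done on 6 mice with lung cancer: 3 received artemisinin (artemisinin replicates 1 to 3) and 3 were untreated model mice (model replicates 1 to 3). The drug is a sesquiterpene lactone from Artemisia annua that is used against malaria. The labels give lung cancer as the cell type of both groups. Strain, age, sex, the way tumours were raised, the dose and duration of the drug, the dissected tissue and the hour of collection are not given in the sources used here. Each library was taken as 1 mouse, since the design text speaks of mice; where libraries were not from separate animals, p-values measure technical spread.

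The clock of mammalian cells is a loop of transcription. ARNTL, also called BMAL1, pairs with CLOCK or its paralog NPAS2, binds E-box motifs and switches on the genes of the period proteins PER2 and PER3, of the repressor CIART, of the nuclear receptors NR1D1 and NR1D2 (the REV-ERBs), and of the PAR bZIP factors DBP and TEF. PER proteins and CIART then repress the ARNTL complex, and the REV-ERBs repress Arntl and Npas2 through ROR elements. Over the day, Arntl and Npas2 transcripts are therefore high when those of Dbp, Tef and Nr1d1 are low. In mouse lung the clock is strong in the airway epithelium, club cells included. Below, Arntl, Npas2 and Clock are called the activator phase, and Dbp, Tef, Nr1d1, Nr1d2, Per3 and Ciart the opposite phase.

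The promoters are shown because the members differ in the clock motifs that they hold. RefSeq windows of 300 bases (GRCm38.p6, 250 bases before the transcript start and 50 after) were found for 9 of the 10 genes, in 13 windows. Per2 had no window. The motifs searched on both strands were the E-box CACGTG, the E-prime box CACGTT, the core of the ROR element AGGTCA, the D-box TTATGTAA or TTACGTAA, and the cyclic AMP element TGACGTCA; no match overlapped another. Capitals mark the matches, and each window reads 5′ to 3′ on the gene's strand. The windows of Ciart (chr3:95882179-95882478, minus strand), Per3 (chr4:151044616-151044915, minus strand), Tef (chr15:81802423-81802722, plus strand), Nr1d1 (chr11:98775328-98775627, minus strand) and the second of the windows of Arntl (chr7:113207261-113207560, plus strand) were as follows.
Ciart: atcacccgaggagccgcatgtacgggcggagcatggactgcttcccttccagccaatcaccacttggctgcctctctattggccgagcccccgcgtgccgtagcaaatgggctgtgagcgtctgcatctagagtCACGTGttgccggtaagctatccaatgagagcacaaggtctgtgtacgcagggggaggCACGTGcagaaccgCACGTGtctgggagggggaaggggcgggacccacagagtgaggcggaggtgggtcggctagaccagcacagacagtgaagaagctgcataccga
Per3: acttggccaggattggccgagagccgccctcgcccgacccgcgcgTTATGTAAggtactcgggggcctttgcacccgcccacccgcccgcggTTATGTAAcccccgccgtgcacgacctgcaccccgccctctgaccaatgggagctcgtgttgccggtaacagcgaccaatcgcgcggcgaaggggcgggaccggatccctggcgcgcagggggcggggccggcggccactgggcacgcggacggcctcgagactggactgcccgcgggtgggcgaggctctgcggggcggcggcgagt
Tef: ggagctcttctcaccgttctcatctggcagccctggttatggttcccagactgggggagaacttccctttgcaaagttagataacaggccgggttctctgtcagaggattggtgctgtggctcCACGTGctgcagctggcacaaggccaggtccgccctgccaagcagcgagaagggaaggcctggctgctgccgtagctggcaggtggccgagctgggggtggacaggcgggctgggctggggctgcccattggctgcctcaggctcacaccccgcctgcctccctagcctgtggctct
Nr1d1: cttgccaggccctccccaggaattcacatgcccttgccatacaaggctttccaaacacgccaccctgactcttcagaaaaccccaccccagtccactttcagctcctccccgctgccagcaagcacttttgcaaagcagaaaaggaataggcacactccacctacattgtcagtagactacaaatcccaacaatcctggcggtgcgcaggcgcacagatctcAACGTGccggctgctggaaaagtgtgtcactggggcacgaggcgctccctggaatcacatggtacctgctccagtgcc
Arntl: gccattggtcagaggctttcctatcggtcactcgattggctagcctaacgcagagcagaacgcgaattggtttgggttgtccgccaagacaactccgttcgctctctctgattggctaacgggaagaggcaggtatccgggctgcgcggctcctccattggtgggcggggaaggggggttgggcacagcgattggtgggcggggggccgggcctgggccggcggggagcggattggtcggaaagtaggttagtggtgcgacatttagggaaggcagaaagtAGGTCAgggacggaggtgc

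Ciart held 3 E-boxes, which began 116, 58 and 44 bases before the start. Tef had 1 E-box in each of its 2 windows. Over all 32851 promoter windows of the table, 7.15% held an E-box. The 2 D-boxes of Per3 both read TTATGTAA and began 205 and 158 bases before the start, and 0.938% of all windows held that motif. Nr1d1 held the E-prime box on the opposite strand, 28 bases before the start, a motif of 4.68% of all windows. The ROR core was found in Arntl, 32 bases into the transcript, and also in Nr1d2 and in 1 window of Clock, against 16.3% of all windows. The D-box variant TTACGTAA and the cyclic AMP element were in none of the 13 windows, and in 0.119% and 1.79% of all windows. The windows of Dbp and Npas2 held none of these letters, which says nothing of sites farther away.

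With artemisinin the members of the opposite phase stood higher and those of the activator phase lower than in the model. Dbp and Nr1d1 rose, by 4.42-fold and 2.58-fold, and Npas2 and Arntl fell, by 2.44-fold and 1.67-fold. These 4 of the 10 members passed an adjusted p of 0.05 (Benjamini-Hochberg over all 15242 genes tested, quasi-likelihood test of edgeR). Over all genes 2.17% were called higher and 2.3% lower in that test. The 7 members other than Arntl, Npas2 and Clock all had log2 fold changes above 0, and those 3 had log2 fold changes below 0. Without adjustment 9 of the 10 members had a p under 0.05, against 24.7% of all genes. The members were chosen with earlier results of these data known, so these shares describe them and are no independent support.

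Dbp had the largest log2 fold change of the 10 members. It encodes a PAR bZIP activator that binds D-boxes and is among the clock outputs of highest amplitude in most tissues (chromosome 7, 45705100 to 45710203, GRCm38). Its level was 45.2, 27.0 and 27.5 normalised CPM in artemisinin replicates 1, 2 and 3, against 5.68, 8.89 and 7.97 in model replicates 1, 2 and 3. A normalised CPM expresses a count relative to the TMM-adjusted total of its library. The lowest artemisinin value was 3.04-fold the highest model value. Dbp averaged 33.2 ± 10.4 normalised CPM with artemisinin and 7.51 ± 1.66 in the model (SD, n = 3 each), and the log2 difference was 2.14 ± 0.28 (SE; adjusted p = 0.0160 in edgeR).

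Tef, its paralog, did not pass the test. Its levels were 197.4, 139.5 and 148.7 normalised CPM in the artemisinin mice, against 67.3, 106.8 and 92.2 in the model mice (chromosome 15, 81802673 to 81826863). The groups did not overlap, and its log2 fold change stood at 0.87 ± 0.22 (SE; edgeR adjusted p = 0.0723). DESeq2, which called 8.1% of all genes higher and 6.9% lower, called Tef higher (adjusted p = 0.00485).

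Nr1d1, which encodes REV-ERB alpha, the haem-binding repressor of Arntl, was the other member that rose (chromosome 11, 98767932 to 98775377). It had 82.5, 90.7 and 65.2 normalised CPM in the artemisinin mice, against 25.5, 32.1 and 34.9 in the model mice. All 3 artemisinin values lay above the model values, the nearest pair 1.87-fold apart, and its log2 fold change stood at 1.37 ± 0.18 (SE; edgeR adjusted p = 0.0166). Nr1d2, the gene of REV-ERB beta, had 127.0, 91.8 and 82.6 normalised CPM with artemisinin, against 46.0, 58.6 and 64.8 in the model (chromosome 14, 18204056 to 18239106). Its groups were also apart, but the test was missed (log2 0.83 ± 0.21, SE; edgeR adjusted p = 0.0707; DESeq2 adjusted p = 0.00720).

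The repressors of the period and Ciart loop were more uneven among the artemisinin mice, and none passed the edgeR test. Per3, a period gene of high daily amplitude (chromosome 4, 150997018 to 151044707), had 51.3, 22.3 and 31.2 normalised CPM with artemisinin, against 11.6, 20.5 and 17.9 in the model. Its nearest values were 1.09-fold apart (log2 1.07 ± 0.34, SE; edgeR adjusted p = 0.121; DESeq2 adjusted p = 0.0294). Per2, a period gene that also answers to glucocorticoids (chromosome 1, 91415977 to 91459351), had 51.3, 22.4 and 38.8 normalised CPM, against 20.6, 24.1 and 19.6. It had the same 1388 counts as Per3 in artemisinin replicate 1 and other counts than Per3 in the other libraries. Artemisinin replicate 2 fell within the model range of Per2 (log2 0.81 ± 0.29, SE; edgeR adjusted p = 0.150).

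Ciart, which encodes the repressor CHRONO of the ARNTL complex (chromosome 3, 95878500 to 95882257), was the member that varied most. It had 15.9, 3.56 and 5.93 normalised CPM in the artemisinin mice, against 1.94, 2.87 and 3.84 in the model mice. Artemisinin replicate 1 was 4.47-fold above replicate 2 of the same group, and replicate 2 lay within the model range. The log2 fold change was 1.55 ± 0.58 (SE; edgeR adjusted p = 0.164), and 0.72 without artemisinin replicate 1.

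Of the 3 activators, Npas2 fell most. It encodes the partner of ARNTL that can stand in for CLOCK (chromosome 1, 39193702 to 39363240). It had 11.3, 9.83 and 6.53 normalised CPM with artemisinin, against 26.4, 19.9 and 21.0 in the model. The highest artemisinin value lay below the lowest model value by 1.76-fold, and its log2 fold change stood at −1.29 ± 0.25 (SE; edgeR adjusted p = 0.0371).

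Arntl, the activator that has no substitute in the loop (chromosome 7, 113178471 to 113314126), had 22.2, 28.4 and 26.4 normalised CPM in the artemisinin mice, against 41.2, 40.1 and 47.2 in the model mice. Both groups were tight, with coefficients of variation of 12.4% and 9.02%, and they did not overlap. The log2 fold change was −0.74 ± 0.15 (SE; edgeR adjusted p = 0.0418). Clock, whose transcript changes little over the day in most tissues (chromosome 5, 76209868 to 76305603), had 78.9, 138.6 and 103.2 normalised CPM, against 125.2, 142.8 and 138.7. The groups overlapped through artemisinin replicate 2 (log2 −0.34 ± 0.21, SE; edgeR adjusted p = 0.352).

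**Figure D1:**
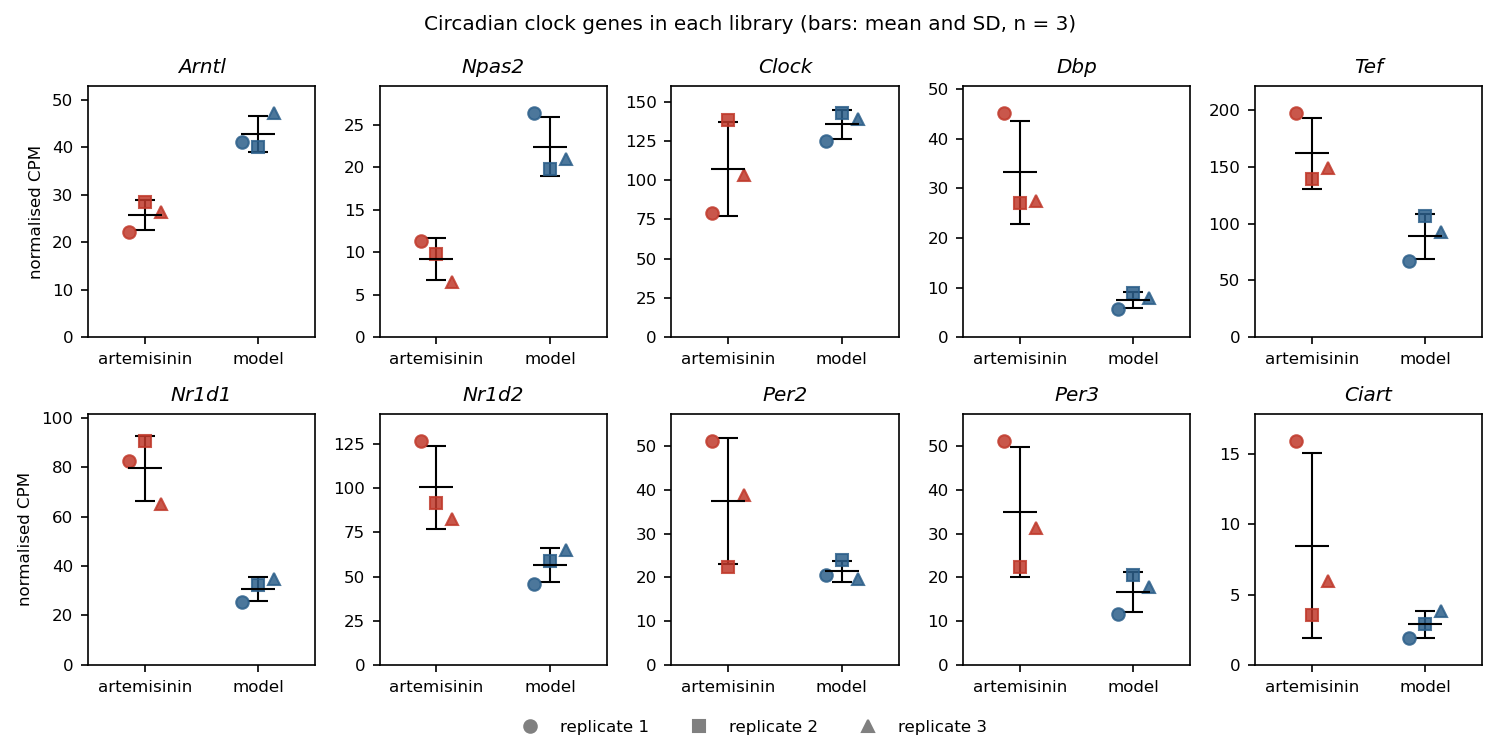
Normalised CPM (vertical axes from 0) of each of the 10 clock genes in the artemisinin and model libraries; symbols are the replicates, and bars are the mean and SD of 3 libraries. Dbp lies between 27.0 and 45.2 with artemisinin and between 5.68 and 8.89 in the model, while Clock, Per2 and Ciart overlap between the groups.

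The groups did not overlap in 7 of the 10 members. Artemisinin stood above the model in 5 of them (Dbp, Tef, Nr1d1, Nr1d2 and Per3) and below it in 2 (Arntl and Npas2). Over all genes tested, 16.3% were apart and higher and 17.3% apart and lower. The same 7 members were apart in the deposited FPKM, which divide the same counts by a value per gene and library total.

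The 4 calls rested on all 3 model mice. With any 1 model replicate left out, edgeR called none of the 10 members, and 17, 118 and 23 genes in all without model replicates 1, 2 and 3, against 682 with all libraries. The adjusted p of Dbp was then 0.0781, 0.0507 and 0.0783 and that of Nr1d1 0.0863, 0.0578 and 0.0713. The direction of every member was kept in all 14 alternative fits.

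Leaving out an artemisinin library changed which members were called. Without artemisinin replicate 1 or 3, Dbp and Nr1d1 were still called, and Arntl (adjusted p = 0.0632 and 0.0644) and Npas2 (adjusted p = 0.0549 and 0.0540) were not. Artemisinin replicate 2 stands apart from all other libraries by its muscle and skin transcripts: 5 skeletal muscle markers summed to 5095 CPM there, against 55.5 and 10.9 in artemisinin replicates 1 and 3 and 3.91 to 4.60 in the model. Without it, edgeR called 4 members higher and 2 lower, as Per2 (log2 1.07 ± 0.19, SE; adjusted p = 0.0240) and Per3 (log2 1.31 ± 0.31, SE; adjusted p = 0.0487) joined Dbp, Nr1d1, Arntl and Npas2. Calls over all genes went up as well in that fit, to 1383 of 15427 (4.34% higher and 4.62% lower), against 682 of 15242 with all libraries.

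The phases stood apart from the model in each artemisinin mouse. The activator phase, as a mean of log2 CPM, lay 0.90, 0.58 and 0.95 below the model mean in artemisinin replicates 1, 2 and 3. The opposite phase lay 1.76, 0.94 and 1.05 above it. In the model mice the activator phase stood at 0.03, −0.06 and 0.03 and the opposite phase at −0.38, 0.18 and 0.20. In artemisinin replicates 1 and 3 all 6 opposite-phase genes were above every model mouse and all 3 activators below every model mouse. In artemisinin replicate 2 this held for 5 of 6 and 2 of 3, with Ciart and Clock as the exceptions.

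The difference between the phases, opposite minus activator, was 2.66, 1.52 and 2.0 above the model mean in artemisinin replicates 1, 2 and 3, against −0.41, 0.24 and 0.17 in the model mice. The group means differed by 2.06 on the log2 scale, with SDs of 0.57 with artemisinin and 0.35 in the model (n = 3 each). No test is given, because the genes and their phases were set with the results known. The value was 1.98 with Per2 added to the opposite phase and 2.27 with Clock left out. Scaling cannot move it much, as it is a difference within each library: it was 2.06 with scaling by library totals.

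**Figure D2:**
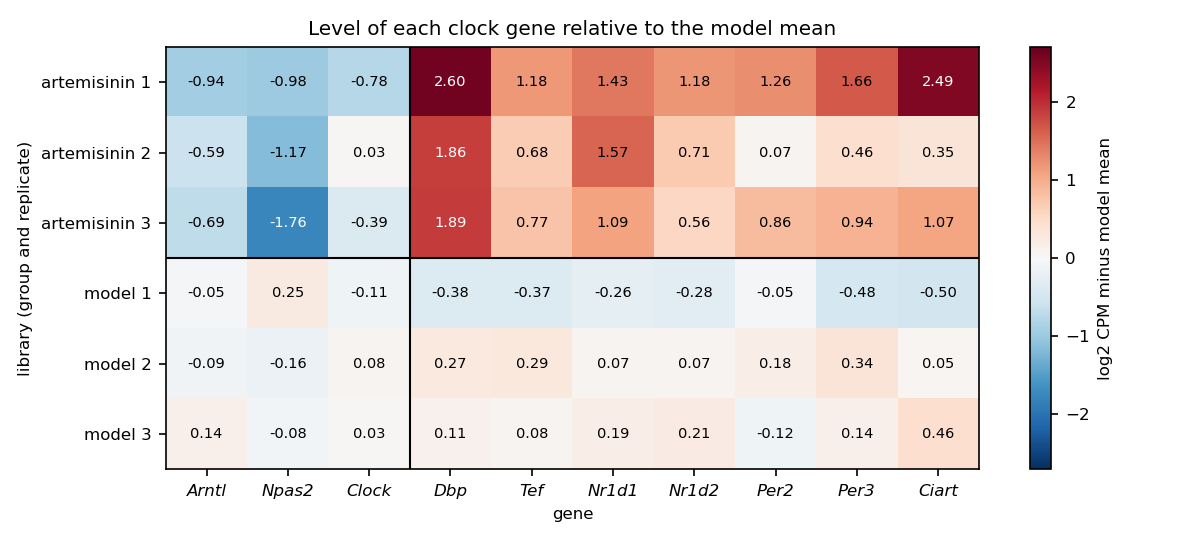
Level of each clock gene (columns) in each library (rows) as log2 CPM minus the mean of the model libraries; red is above and blue below that mean, and the vertical line parts the activators from the other genes. Dbp stands at 2.60, 1.86 and 1.89 in artemisinin replicates 1 to 3, and Clock at 0.03 in artemisinin replicate 2.

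**Figure D3:**
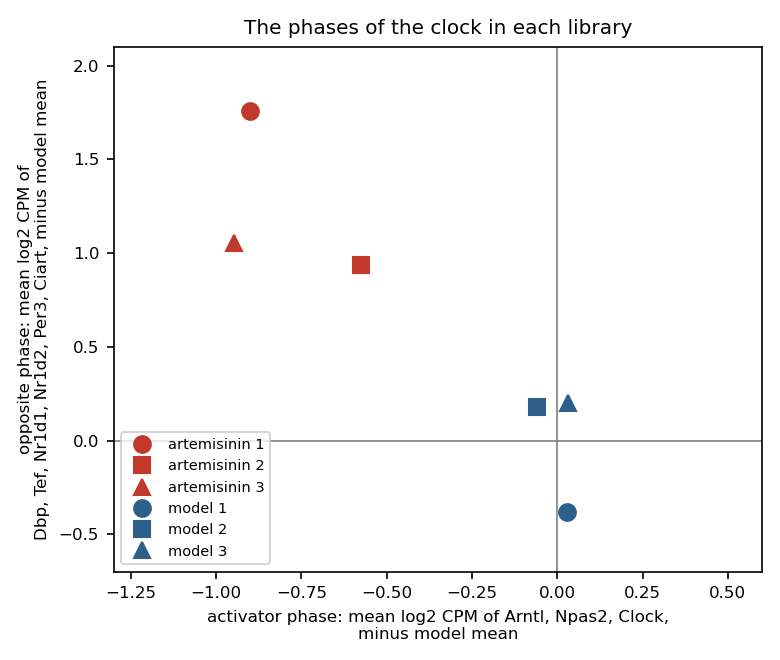
Mean log2 CPM of the opposite phase (vertical axis) against that of the activator phase (horizontal axis), each relative to the model mean, with 1 point for each library. The artemisinin libraries lie at −0.95 to −0.58 on the activator axis and at 0.94 to 1.76 on the opposite axis, and the model libraries near 0 on both.

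Pairs of genes within a library showed the same separation in FPKM, which divide counts by a value per gene. The size of each ratio rests on those values, so only the contrast between groups is read. By normalised CPM, Dbp averaged 33.2 and Arntl 25.7 with artemisinin, and 7.51 and 42.8 in the model. In FPKM, Dbp was 15.8, 7.40 and 8.07 times as high as Arntl in the artemisinin mice, and 1.07, 1.72 and 1.31 times as high in the model mice. Nr1d1 was 11.3, 14.2 and 15.4 times as high as Npas2 in the artemisinin mice, and 1.49, 2.50 and 2.56 times as high in the model mice. Neither ratio overlapped between the groups.

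The order of the members by FPKM also differed between the groups. It rests on the value per gene by which FPKM divide counts, and normalised CPM gave another order. By normalised CPM Arntl averaged 25.7 with artemisinin, above Npas2 (9.21) and Ciart (8.47). In the model Arntl averaged 42.8, above Npas2 (22.4) and Dbp (7.51). With artemisinin Nr1d1 led with 29.7 ± 4.16 FPKM, followed by Tef (27.4 ± 6.01), Nr1d2 (21.5 ± 5.42), Dbp (13.9 ± 4.69) and Clock (11.0 ± 2.69). Per2, Per3, Ciart and Npas2 averaged 6.43, 5.35, 3.74 and 2.23 FPKM, and Arntl was lowest with 1.37 ± 0.13 (SD, n = 3). The ranges of all neighbours in this order overlapped, save those of Npas2 and Arntl. In the model Tef led with 14.0 ± 3.38 FPKM, ahead of Clock (13.2 ± 1.11), Nr1d2 (11.2 ± 2.0) and Nr1d1 (10.8 ± 1.78), 4 genes whose neighbouring ranges overlapped. Npas2 followed with 5.07 ± 0.71 and was apart from both neighbours. Per2, Dbp, Per3 and Arntl averaged 3.39, 2.92, 2.36 and 2.14 FPKM with overlapping neighbours, and Ciart, at 1.17 ± 0.39, was apart from Arntl. By FPKM, Dbp was thus the fourth of the members with artemisinin and the seventh in the model.

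Within the artemisinin group replicates 1 and 2 were the extremes for most members. Replicate 1 had the highest value of Dbp, Tef, Nr1d2, Per2, Per3 and Ciart and the lowest of Arntl and Clock. Replicate 2 had the lowest value of Dbp, Tef, Per2, Per3 and Ciart and the highest of Arntl and Clock. Nr1d1 did not follow, being highest in replicate 2, nor did Npas2, which was highest in replicate 1. Highest over lowest ranged from 1.28 for Arntl to 4.47 for Ciart with artemisinin and from 1.14 for Clock to 1.98 for Ciart in the model. In the model, replicate 1 had the lowest values of the 6 opposite-phase genes.

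Clock genes outside the 10 were also measured. Of 22 further genes of the loop, its kinases and ligases and its outputs, edgeR called 0, limma-voom 0 and DESeq2 2 higher and 1 lower. Over all genes limma-voom called 1.67% higher and 2.22% lower, and DESeq2 8.1% and 6.9%. At an unadjusted p under 0.05 in edgeR 3 of the 22 were higher and 1 lower, against 13.7% and 11% of all genes, so these counts were near or below the shares over all genes. The groups were apart in 3 of the 22 with artemisinin higher and in 5 with it lower. Among all genes tested, 16.3% were apart and higher and 17.3% apart and lower. The median log2 fold change of the 22 was −0.09, against 0.04 over all genes tested.

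The genes nearest to a call were outputs of the same loop. Usp2, a deubiquitinase gene under direct clock control, had 14.7, 18.5 and 12.3 normalised CPM with artemisinin, against 5.31, 8.31 and 5.11 in the model (log2 1.28 ± 0.28, SE; edgeR adjusted p = 0.0503; DESeq2 called it higher). Hlf, the third PAR bZIP gene, had 12.6, 10.6 and 10.4 normalised CPM, against 3.16, 6.33 and 6.27 (log2 1.09 ± 0.32, SE; edgeR adjusted p = 0.0986; DESeq2 called it higher). All 3 PAR bZIP genes thus had artemisinin values above every model value, as had 16.3% of all genes tested. Wee1, a cell cycle kinase gene under clock control, had lower values with artemisinin, 9.87, 15.0 and 13.3 normalised CPM, against 21.6, 18.4 and 21.5 (log2 −0.69 ± 0.21, SE; edgeR adjusted p = 0.106; DESeq2 called it lower).

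The remaining repressors overlapped or differed little. Per1, the period gene most open to acute signals, had 92.2, 43.1 and 60.8 normalised CPM with artemisinin, against 35.3, 39.3 and 67.4 in the model (edgeR adjusted p = 0.420). The cryptochrome genes Cry1 and Cry2, partners of the period proteins, had log2 fold changes of −0.51 ± 0.23 and 0.07 ± 0.19 (SE; edgeR adjusted p = 0.229 and 0.828). Nfil3, the repressor that competes with DBP for D-boxes, had 15.5, 16.6 and 19.2 normalised CPM, against 28.1, 19.1 and 22.9 (log2 −0.45 ± 0.19, SE; edgeR adjusted p = 0.205). Bhlhe41, a repressor at E-boxes, had 27.7, 37.4 and 34.0, against 23.3, 27.2 and 20.9, with the groups apart (edgeR adjusted p = 0.159), and its paralog Bhlhe40 had a log2 fold change of −0.41 ± 0.25 (SE).

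The activators of Arntl and the modifiers of the period proteins were not called. The ROR genes Rora and Rorb had log2 fold changes of −0.18 ± 0.20 and −0.59 ± 0.78 (SE), and Arntl2, the paralog of Arntl, of 0.17 ± 0.93. The kinase genes Csnk1d, Csnk1e and Gsk3b were at −0.21, 0.12 and −0.37, and the ubiquitin ligase genes Fbxl21, Btrc and Fbxw11 at −0.60, 0.01 and −0.45. Csnk1d, Gsk3b, Fbxl21 and Fbxw11 had artemisinin values below every model value, as had 17.3% of all genes tested. Timeless and Tspan4 were at 0.41 and 0.02. None of these genes was called by limma-voom or DESeq2 either.

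**Figure D4:**
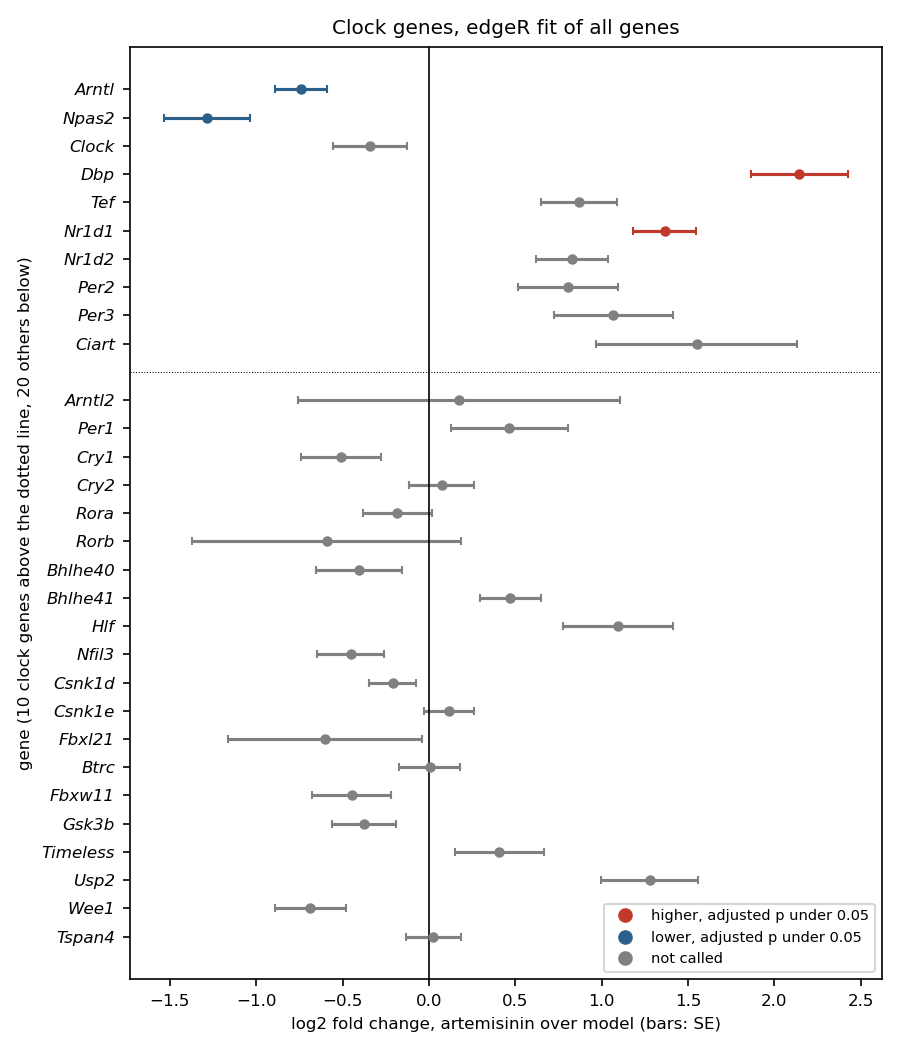
Log2 fold change, artemisinin over model, with its SE, for the 10 clock genes (above the dotted line) and 20 further clock genes (below it) in the edgeR fit of all genes; red and blue mark genes with an adjusted p under 0.05. Dbp and Nr1d1 are marked higher and Arntl and Npas2 lower, and Usp2 and Hlf have the highest values of the further genes.

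Genes that followed the same pattern over the 6 libraries were sought among 13977 others, by the mean absolute difference of log2 CPM after each gene was centred on its own mean. Among the 5 nearest to Arntl were Slc44a3, Apc, Plekha8 and Pxmp4, at 0.04 to 0.05. Clock and Npas2 were farther from Arntl, at 0.19 and 0.36. Slc44a3 had 21.2, 30.6 and 25.6 normalised CPM with artemisinin, against 41.0, 39.7 and 45.3 in the model. Nearest to Dbp were Clec4a1, Myl9, Phf11a, Acta2 and Ptchd1, at 0.10 to 0.16, and nearest among the members was Nr1d1, at 0.40. Clec4a1, a gene of a myeloid C-type lectin, had 55.4, 37.3 and 33.0 normalised CPM, against 7.38, 9.48 and 8.98. Myl9 and Acta2 are contractile genes of smooth muscle.

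The libraries held 25566173 to 33126585 counts with artemisinin and 32964061 to 34745497 in the model, and 3 counts corresponded to at most 0.111 normalised CPM, far below every member. Lung epithelial transcripts were abundant in all 6. Cell type markers moved with the groups too. All 8 alveolar type 2 markers had lower artemisinin values than any model value (5 called lower; summed 6480 to 20377 normalised CPM with artemisinin and 48151 to 71870 in the model). All 7 neutrophil markers were higher (6 called; 708.1 to 4636 and 92.5 to 124.9), as were all 5 smooth muscle markers (5 called; 856.0 to 1400 and 210.4 to 346.3). The 4 club cell markers summed to 20519 to 71961 with artemisinin and 7960 to 20204 in the model, with none called, and the 5 adipocyte markers to 69.5 to 600.8 and 26.6 to 39.1, with Aqp7 called higher. Club, adipocyte, smooth muscle and ciliated sums were highest in artemisinin replicate 1, the library with the highest opposite phase. Neutrophil, endothelial and T and B cell sums were highest in artemisinin replicate 3. The 5 ciliated markers summed to 523.7 to 734.9 and 248.7 to 430.1, the 4 endothelial markers to 1066 to 2786 and 1303 to 2249, and the 6 T and B cell markers to 136.5 to 272.1 and 95.6 to 185.6, with none called. The 5 keratinocyte markers summed to 429.6 in artemisinin replicate 2, to 8.61 and 3.26 in artemisinin replicates 1 and 3 and to 2.56 to 2.96 in the model, and Acta1, Myh4, Krt5, Krt14 and Lor fell outside the filter. Myh4 had no count in the other 5 libraries. In bulk RNA, fewer cells of a type and less RNA per cell cannot be told apart. The part of these cell types, and of the hour of collection, in the clock gene differences was not tested.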

How the data were processed

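Per the labels' protocols, RNA of 6 mice was extracted with the mirVana kit and made into TruSeq Stranded mRNA libraries; reads were placed on GRCm38 (mm10), per the submitters' processing notes. Aligner, counting tool, annotation and whether counting used the strand are not given in the sources used here. Thus overlapping genes may share reads. The authors deposited raw read counts per gene and FPKM. The FPKM equal the counts divided by library total and a value per gene (largest relative gap 5.3e-07 over 15462 genes), so they are not independent of the counts.

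Counts were fitted with edgeR 4.0.16 in R 4.3.3 (filterByExpr, TMM, robust glmQLFit, glmQLFTest, Benjamini-Hochberg over 15242 genes, threshold 0.05), without a replicate block. The SE is the log2 fold change over the root of F. With 3 mice a group, the smallest exact two-sided permutation p is 0.1. Log2 CPM of phases used a prior count of 2. Alternatives were DESeq2 1.42.0, limma-voom and limma 3.58.1 on log2(FPKM + 0.1) with a mean FPKM of at least 0.5, other scaling and filters, a replicate block, and leaving out each library. The fits were tested on simulated data. Entrez numbers gave coordinates for 18124 of 18238 genes.

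The members, lists and rules were chosen with earlier results of these data known. Named are all 10 members, 22 further clock genes, called genes of 2 context lists, and the 5 genes most like Arntl or Dbp among those averaging 1 CPM or more. Of the genes these rules name, 3 are not reported here.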

Additional observations from a re-analysis of the deposited data

How the results depend on the processing

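No member reversed its direction in any of the 14 alternative fits, and the phase difference stayed within 1 pooled SD of the groups (0.48) of its reported value, from 1.68 with log2(FPKM + 1), a shift larger than the SD of the model mice alone (0.35), to 2.33 without artemisinin replicate 2. Members called higher (2) became 5 with DESeq2 and 0 with the replicate block, and ranged from 0 to 4 when 1 library was left out. Members called lower (2) became 1 with scaling by total counts, 1 with limma on log2(FPKM + 0.1), 1 on log2(FPKM + 1), 0 on log2(FPKM + 0.1) without a filter and 0 with the replicate block, and ranged from 0 to 2 when 1 library was left out. The further clock genes called higher (0) became 1 with scaling by total counts (Usp2), 2 with DESeq2 and 1 with limma on log2(FPKM + 0.1), and those called lower (0) became 1 with DESeq2. Counts of all genes called were 682 in the reported fit, 2286 with DESeq2, 1383 without artemisinin replicate 2 and 128 with the replicate block. The causes were not tested. With scaling by total counts the all-gene median log2 fold change was 0.15, against 0.04 as reported, and Arntl then had an adjusted p = 0.0529.

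Mice with the same replicate number showed no close likeness: deviations from the group means correlated at −0.0040, −0.10 and 0.03 for numbers 1, 2 and 3. A shared hour or order of collection was not tested. With the replicate block the edgeR adjusted p was 0.0542 for Dbp, 0.0518 for Nr1d1, 0.0623 for Npas2 and 0.0944 for Arntl. Ciart had the lowest counts of the members, 431, 113 and 207 with artemisinin and 64, 93 and 122 in the model. The effect of depth was not tested.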

Other observations

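Genes that share daily rhythms with the clock were taken as 2 lists. Of 12 genes that answer to glucocorticoids, edgeR called Dusp1 and Nfkbia higher, against 2.17% of all genes called higher, and the list's median log2 fold change was 0.49, against 0.04 over all genes tested. Neither was called with the replicate block, without artemisinin replicate 1 or 3, or without any 1 of the model replicates; without artemisinin replicate 1 Fkbp5 was called instead. Dusp1, a phosphatase gene that restrains MAP kinases, had 435.2, 333.3 and 393.7 normalised CPM with artemisinin, against 110.5, 174.4 and 196.4 in the model (log2 1.27, edgeR adjusted p = 0.0356). Nfkbia, the gene of the NF-kB inhibitor, had 173.0, 139.9 and 159.1, against 79.3, 102.3 and 80.2 (log2 0.85, edgeR adjusted p = 0.0353). Both also answer to inflammatory signals. Fkbp5, Tsc22d3 and Sgk1 had artemisinin values above every model value, as had 16.3% of all genes tested. DESeq2, which called 8.1% of all genes higher, called each of them. They were not called in the reported edgeR fit, but edgeR called Tsc22d3 with scaling by total counts. Klf9, Zbtb16, Mt1, Mt2, Cdkn1a and Per1 overlapped between the groups. Errfi1 had artemisinin values below every model value and was called lower by DESeq2, and by edgeR without artemisinin replicate 2, but not by edgeR with all libraries (log2 −0.96, adjusted p = 0.0821).

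Of 10 genes that follow body temperature, edgeR called 0, with 0 higher and 2 lower at an unadjusted p under 0.05, against 13.7% and 11% of all genes. For this list limma-voom called 0, and DESeq2 called Hspa1b lower, as did edgeR without artemisinin replicate 2. Their median log2 fold change was 0.07. Cirbp and Rbm3, the cold-inducible RNA-binding protein genes, had log2 fold changes of 0.34 and 0.06 with overlapping groups.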
